A study of Mus musculus with 12 samples.

Results

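The genes described here build and fill the lysosome, the acid compartment in which cells break down proteins, lipids and sugar chains. A proton pump, the V-ATPase, acidifies it: the V0 sector lies in the membrane and carries the protons, and the V1 sector on its cytosolic face splits ATP. Chloride exchange balances the charge, and the hydrolases inside work at the low pH that results. In cartilage and bone the same machinery has a second use, because osteoclasts place the pump and the chloride exchanger in their ruffled border and secrete acid and hydrolases onto mineralised matrix, and loss of either protein in this role causes osteopetrosis, dense bone that is not resorbed.

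The set holds 41 genes of the 18193 genes named on the arrays, listed by name as parts of the pump and the lysosome. The probe set had to be annotated with that symbol alone, and the probe set with the highest mean log2 signal over all arrays stood for the gene. With that rule 40 of the 41 genes were found, and all 40 passed the filter on low signals, a zone mean reaching 50 somewhere in the bone. Atp6v0c, a proteolipid subunit of the V0 sector, had no probe set under its symbol alone and has no value here. The 18 pump genes, 17 of them measured, comprise 8 V0 subunits, 8 V1 subunits and 2 accessory proteins, and the 23 others comprise the exchanger Clcn7 with its partner Ostm1, 7 membrane proteins, 11 hydrolases and 3 activator or lipid transfer proteins. These are well expressed genes on the arrays: their median signal was 889, against 201 over all 11808 genes tested, and 29 of the 40 lay above that median.

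Tibiae of untreated CD1 mouse embryos at embryonic day 15.5 had been cut by hand into zone I (resting and proliferating chondrocytes at the bone ends), zone II (the next segment, with maturing chondrocytes) and zone III (the middle of the bone, with late hypertrophic cartilage and mineralised tissue). Each zone was measured on 4 Affymetrix arrays, lettered A to D, and segments of all embryos of a litter were pooled, so that a value is the average of a mixed tissue and not of a cell type. Values are signal intensities in arbitrary units, given per array in the order A, B, C, D, and differences are on the log2 scale with the standard error (SE) from limma, fitted on all 12 arrays. A gene is called higher or lower at a Benjamini-Hochberg adjusted p under 0.05 over all probe sets tested.

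The contents of the 3 zones differed well beyond the genes of interest. The summed signal of 9 cartilage markers was 17989 to 22769, 29641 to 32567 and 10253 to 13318 in zones I, II and III. Osteoclast markers (10 measured, among them Acp5, Ctsk and Mmp9) summed to 969 to 1106, 889 to 1967 and 12588 to 14937 in zones I, II and III. The sums of 15 macrophage markers were 1803 to 2848, 907 to 1458 and 7223 to 8883 in the same order. In zone II the macrophage markers Cd68, Mpeg1, Tyrobp, Fcer1g, C1qa, C1qb, C1qc, Cd53 and Ptprc averaged under 50, as did the osteoclast markers Ocstamp, Dcstamp, Calcr and Oscar in zones I and II. In such pieces more cells of a type and more RNA per cell cannot be told apart. The 3'/5' signal ratio of Gapdh, a sign of RNA integrity, was 1.27 to 1.76, 1.25 to 1.51 and 1.98 to 2.28 in zones I, II and III, while that of actin was 2.09 to 2.95, 2.63 to 3.23 and 1.70 to 2.02. The part of these differences in the results below was not tested.

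At the first boundary, between zones II and I, 13 members were called higher and 6 lower of 40, against a background of 16% and 25.4% of all 11808 genes. Of these, 9 higher and 2 lower were among the 17 pump genes, with 4 and 4 among the 23 others. With arrays centred on ribosomal protein genes instead of the deposited scale the pump counts became 1 higher and 4 lower, because that scaling put the median gene at -0.43 instead of -0.09, and of the 13 higher calls Atp6v0b alone was kept. On the deposited scale the pump genes' median lay 0.45 above the median gene, with 13 of the 17 above it. Centring moves all genes of an array alike and leaves that distance fixed, while quantile normalization, which can change it, gave 0.38, with 12 of the 17 above.

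At the second boundary, between zones III and II, 20 members were called higher and 5 lower of 40, against 30.8% and 22.7% of all genes. Here 7 of the 17 pump genes were higher and 2 lower, and 13 of the 23 others were higher and 3 lower. The median log2 difference was 0.27 over the pump genes and 0.47 over the others, against 0.08 over all genes tested. Between zones III and I the counts were 26 higher and 1 lower of 40, against 21.6% and 21.7% of all genes, and every one of the 17 pump genes lay above the median gene. The 3 comparisons share arrays, so their values for a gene are not independent of each other.

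**Figure D1:**
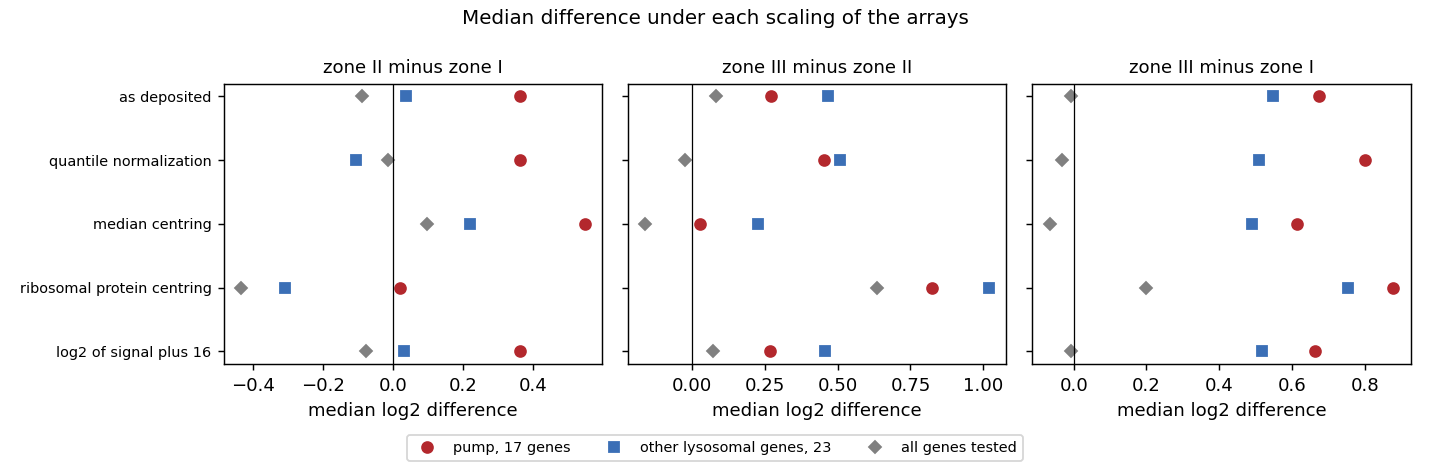
Median log2 difference between zones (x axis) of the 17 pump genes, the 23 other lysosomal genes and all 11808 genes tested, for the deposited scale and 4 other scalings of the arrays (rows). Both centrings shift all 3 medians together, so only quantile normalization and the added 16 can change their distances. In the left panel, with quantile normalization, the pump is at 0.36 and the other lysosomal genes at -0.10, against -0.01 for all genes.

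The V0 sector held the largest difference of the set. Atp6v0d2, the d subunit isoform abundant in osteoclasts and needed in mice for the fusion of their precursors, had signals of 38.9, 26.1, 38.3 and 43.3 on the 4 zone I arrays, 68.8, 42.0, 37.1 and 32.5 on the zone II arrays and 969.7, 1020.0, 842 and 878 on the zone III arrays. Every zone III array lay far above every other array, and zones I and II overlapped around the level of 50 used for the filter. It was 21.4-fold higher in zone III than in zone II (log2 difference 4.42 ± 0.22, limma adjusted p = 2.74e-08) and 25.7-fold higher in zone III than in zone I. With zones I and II below 50 on average these folds are loose: a dimmer probe set of Atp6v0d2 gave log2 differences of 5.74 and 6.98, both called, and was called higher in zone II than in zone I (1.24).

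Its widely expressed counterpart Atp6v0d1 took another course, with 775, 857, 634 and 645 in zone I, 1048, 909, 863 and 1082 in zone II, and 1149, 1026, 1024 and 1022 in zone III. All zone II and zone III arrays lay above all zone I arrays, and zones III and II overlapped. Atp6v0d1 was higher in zone II than in zone I by 0.43 ± 0.13 (limma adjusted p = 0.0191), and its difference between zones III and II was 0.12 ± 0.13 (limma adjusted p = 0.474). The log2 ratio of Atp6v0d2 to Atp6v0d1 averaged -0.19 ± 0.12 in zone III and -4.49 ± 0.46 in zone II (SD, n = 4 each). The difference of 4.30 had p = 0.0286 in an exact two-sided permutation test, the smallest p that 4 against 4 arrays allow. Over the 12 isoform comparisons made its adjusted p in that test was 0.0571, so it did not pass the correction. All 4 zone III arrays lay above all zone II arrays. A ratio at that smallest p passes only if most of the 12 comparisons also reach it, so not passing decides little.

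**Figure D2:**
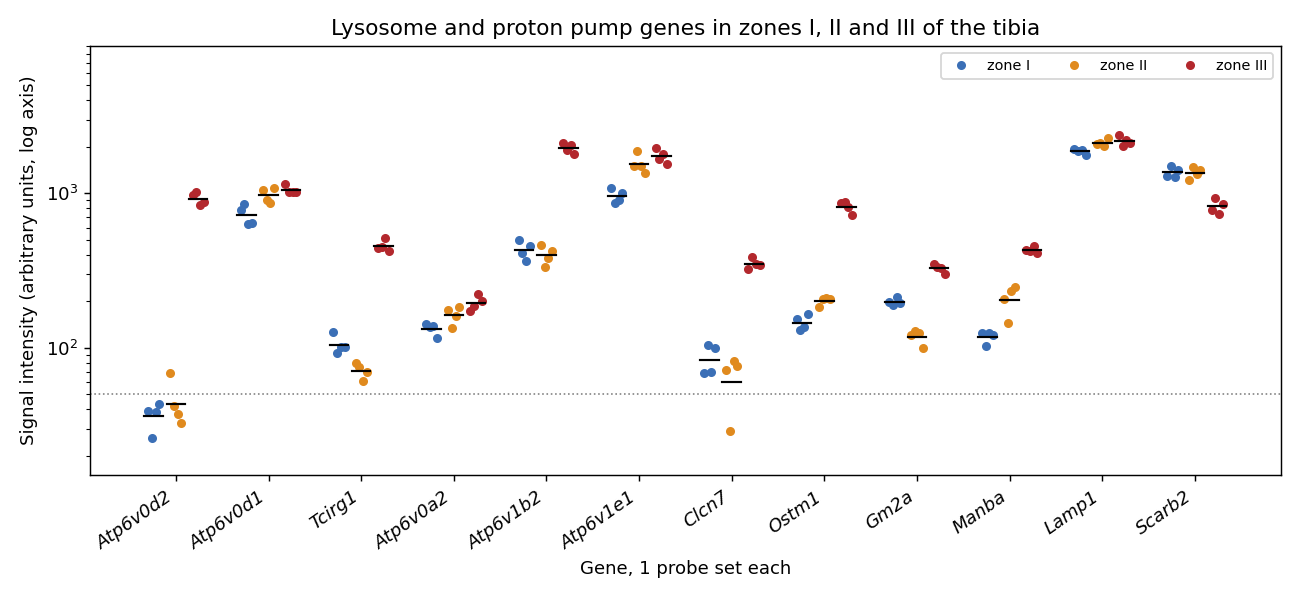
Signal intensity (log axis, arbitrary units) of 12 genes, each point an array, 4 per zone, with a bar at the geometric mean and a dotted line at 50. Atp6v0d2, Tcirg1, Atp6v1b2, Clcn7 and Ostm1 stand apart in zone III, Gm2a dips in zone II, Lamp1 stays between 1784 and 2395, and Scarb2 is lowest in zone III, at 740.0 to 928.

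The a subunits, which direct the pump to its membrane, were called differently. No ratio between them passed the correction, but with 4 arrays per zone even ratios without overlap could miss it. Tcirg1 encodes a3, the isoform of the osteoclast ruffled border, and read 127, 92.4, 101 and 102 in zone I, 79.4, 75.2, 61.0 and 70.1 in zone II, and 444, 449, 512 and 426 in zone III. The zones did not overlap: zone II held the 4 lowest values and zone III the 4 highest. Tcirg1 was 6.43-fold higher in zone III than in zone II (log2 difference 2.68 ± 0.13, limma adjusted p = 2.39e-08) and 1.48-fold lower in zone II than in zone I (log2 difference -0.56 ± 0.13, limma adjusted p = 0.00434).

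Atp6v0a2, whose product is found mainly in the Golgi apparatus and endosomes, had 142, 137, 138 and 116 in zone I, 176, 135, 159.8 and 184 in zone II, and 174, 188, 223 and 202 in zone III. Neighbouring zones overlapped on this probe set, and only zone III against zone I was called, at 0.56 ± 0.13 (limma adjusted p = 0.00421). The 2 dimmer probe sets of Atp6v0a2 were not called there (0.16 and 0.51). The brighter of those 2 was called higher in zone II than in zone I (0.77, limma adjusted p = 0.0104). Quantile normalization and median centring also called Atp6v0a2 higher in zone II than in zone I. The log2 ratio of Tcirg1 to Atp6v0a2 was 1.22 ± 0.12 in zone III and -1.19 ± 0.26 in zone II (SD, n = 4 each), a difference of 2.42, again with the smallest exact permutation p of 0.0286 and an adjusted p of 0.0571. Between zones II and I that ratio was lower by 0.85, with the same exact permutation p and adjusted p.

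Atp6v0a1 was dim and uneven, with 80.0, 85.7, 84.2 and 28.9 in zone I, 48.9, 6.48, 9.90 and 29.4 in zone II, and 138, 76.8, 88.2 and 82.8 in zone III. The zone II values spread over 6.48 to 48.9, and zone I array D fell among them. It was called higher in zone III than in zone II (2.43 ± 0.57, limma adjusted p = 0.00336) and lower in zone II than in zone I (-1.88 ± 0.57, limma adjusted p = 0.0206). A further probe set of the gene gave 0.08 and 0.29 for the same 2 comparisons, uncalled in both, so the pattern rests on 1 probe set. The zone II against zone I call was also lost without arrays A, B or C of zone I or B or C of zone II. The log2 ratio of Tcirg1 to Atp6v0a1 was higher in zone III than in zone II by 0.26 (exact permutation p = 0.7714). It was higher by 1.31 in zone II than in zone I and by 1.57 in zone III than in zone I (exact permutation adjusted p = 0.1905 and 0.098).

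The 2 remaining V0 subunits were bright throughout and were called higher in zone II than in zone I. Atp6v0b, a proteolipid of the proton-carrying ring, read 608, 687, 453 and 701 in zone I, 1251, 1017, 1079.6 and 1019 in zone II, and 1552, 1376, 1242 and 1312 in zone III. No zone I array reached a zone II array, and its zone II over zone I difference of 0.85 ± 0.15 was the largest upward one among members (limma adjusted p = 0.000752). It is also the single member whose higher call between zones II and I was kept under every alternative tried. Between zones III and II its brightest probe set was not called (0.33), but its 2 other probe sets were called higher (0.54 and 0.82). Atp6v0e, a small membrane subunit, had 1713, 1384, 1375 and 1449.7 in zone I, 2428, 2746, 2094 and 1985 in zone II, and 1885, 1568, 1663 and 1589.6 in zone III. Its zone II values stood above those of both neighbours, by 0.64 over zone I (limma adjusted p = 0.00215), and zone III was lower than zone II by 0.46 (limma adjusted p = 0.0109), a difference that turned to 0.09 higher with ribosomal protein centring.

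The 8 subunits of the V1 sector are its working parts: A and B form the ATP-splitting head, D and F the turning shaft, E and G the outer stalks, and C and H control assembly and activity. Of these, 6 were called higher in zone II than in zone I and none lower (16% and 25.4% of all genes), with a median of 0.44. The 6 were Atp6v1e1 (0.69), Atp6v1h (0.60), Atp6v1d (0.47), Atp6v1a (0.44), Atp6v1c1 (0.44) and Atp6v1g1 (0.36), all on the log2 scale, and with ribosomal protein centring none of the 6 was called. Atp6v1e1 read 1076, 868, 904 and 1011 in zone I, 1504, 1874, 1494 and 1359 in zone II, and 1973, 1675, 1797 and 1541 in zone III. All of its zone II values lay above all of its zone I values, and zones III and II overlapped. For Atp6v1h a further probe set gave -0.11 between zones II and I, uncalled.

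Between zones III and II, 3 of the 8 V1 subunits were called higher and 1 lower, against 30.8% and 22.7% of all genes. Atp6v1b2, the B2 isoform carried by osteoclasts as well as most other tissues, had 498, 414, 366 and 456 in zone I, 465, 335, 384 and 422 in zone II, and 2107, 1898, 2045 and 1796 in zone III. Zones II and I overlapped and were not called different, and it was 4.91-fold higher in zone III than in zone II (log2 difference 2.30 ± 0.13, limma adjusted p = 6.54e-08). Atp6v1c1 and Atp6v1a were also higher in zone III, by 0.81 ± 0.14 and 0.35 ± 0.11, though the Atp6v1a call was lost with no filter and with median centring (0.11). The values of the other subunits were 0.27 for Atp6v1f, 0.20 for Atp6v1d, 0.20 for Atp6v1h and 0.17 for Atp6v1e1, none of them called on the deposited scale. Atp6v1f, Atp6v1d and Atp6v1e1 were called higher with quantile normalization and all 4 with ribosomal protein centring, and further probe sets of Atp6v1h (0.83) and Atp6v1d (0.30) were called higher. Whether the subunits differ from one another in this step was not tested.

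Atp6v1g1 was the V1 subunit that turned down. It read 2960.2, 2761, 2771 and 3256 in zone I, 4117, 3506, 3985 and 3525 in zone II, and 3245, 3032, 2837 and 2976 in zone III. Zone II held its 4 highest values, with zones III and I overlapping. The difference between zones III and II was -0.32 ± 0.10 (limma adjusted p = 0.0216), but it became 0.13 with quantile normalization and 0.23 with ribosomal protein centring, and a further probe set gave 0.25. Over the whole step from zone I to zone III, 7 of the 8 V1 subunits were called higher in zone III, against 21.6% of all genes. Their differences ran from 0.49 for Atp6v1f to 2.19 for Atp6v1b2.

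Of the accessory proteins, which escort the V0 sector through its assembly, Atp6ap2 was higher in zone III than in zone II by 0.87 ± 0.12 (limma adjusted p = 8.63e-05), with means of 3436 ± 232 in zone III and 1889 ± 294 in zone II (SD, n = 4 each). Atp6ap1 averaged 983 ± 154, 942 ± 198 and 1121 ± 172 in zones I, II and III (SD, n = 4 each). It was called in no comparison on the deposited scale, and higher between zones III and II with ribosomal protein centring.

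**Figure D3:**
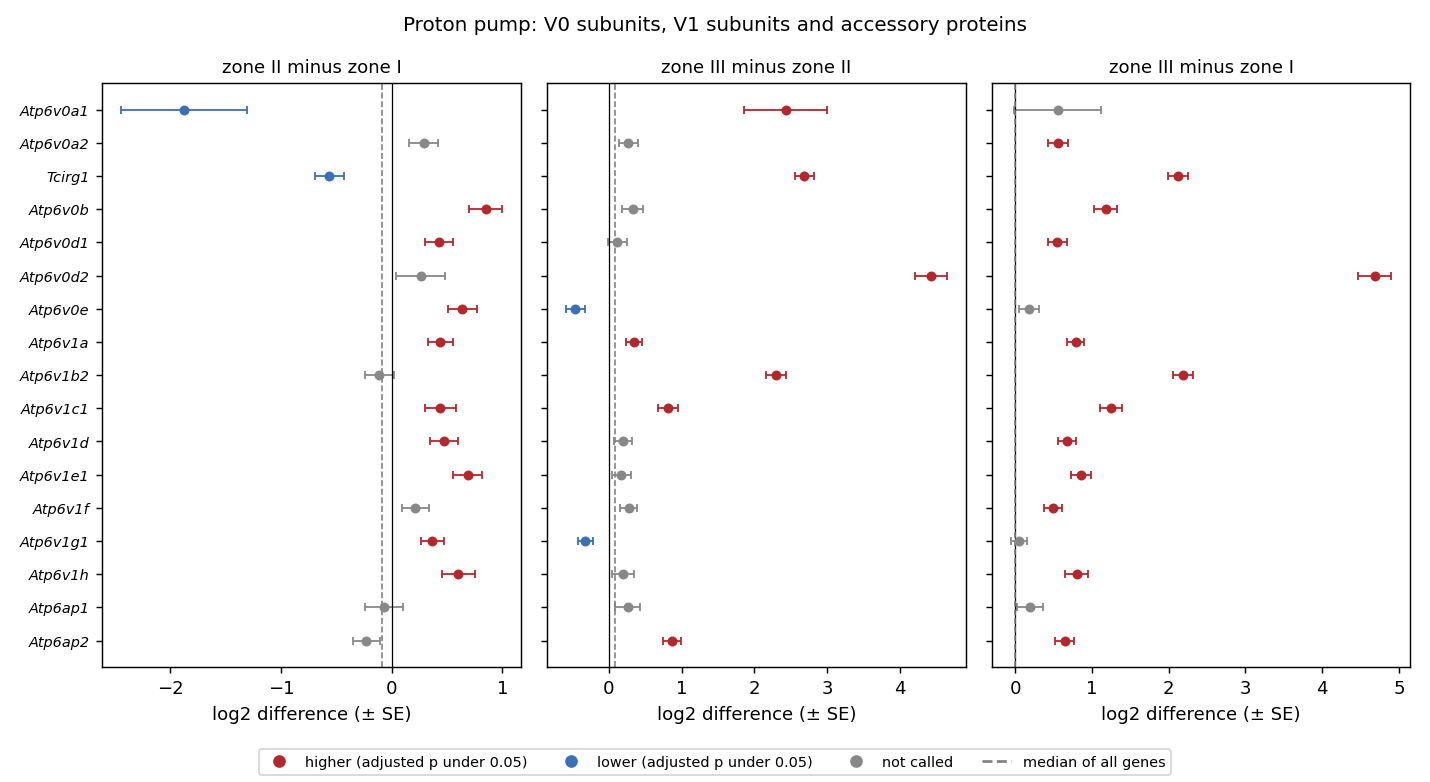
Log2 difference between zones (x axis, bars are SE) for the 17 measured pump genes (rows), with the dashed line at the median of all genes tested and colour for the call. Most subunits sit at 0.2 to 0.9 in the zone II minus zone I panel, while in the zone III minus zone II panel Atp6v0d2, Tcirg1, Atp6v0a1 and Atp6v1b2 stand beyond 2 and most of the others remain under 0.4.

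Clcn7, the chloride-proton exchanger, and Ostm1, the subunit that stabilises it, were among the genes most raised in zone III. Clcn7 read 69.1, 104, 69.7 and 99.5 in zone I, 72.0, 28.8, 81.8 and 76.8 in zone II, and 324, 389.8, 349.8 and 344 in zone III. All zone III arrays lay above 300, and zones I and II overlapped, zone II array B being the lowest of all. It was 5.84-fold higher in zone III than in zone II (log2 difference 2.55 ± 0.29, limma adjusted p = 1.32e-05), and a dimmer probe set gave 0.63, also called, with an uncalled 0.46 between zones III and I. Ostm1 had 153, 130.5, 137 and 165 in zone I, 183, 207, 209 and 208 in zone II, and 862, 873, 811 and 725 in zone III, with no overlap between any of the zones. It was higher in zone II than in zone I by 0.47 ± 0.11 (limma adjusted p = 0.006) and 4.05-fold higher in zone III than in zone II (log2 difference 2.02 ± 0.11, limma adjusted p = 4.93e-08).

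The 7 membrane proteins had median log2 differences of 0.18, -0.07 and 0.22 for zones II against I, III against II and III against I. Lamp1, the abundant glycoprotein that lines the lysosome, read 1931, 1893, 1895 and 1784 in zone I, 2071, 2117, 2017 and 2276 in zone II, and 2395, 2039.5, 2218 and 2123 in zone III. Its highest difference was 0.22 ± 0.09, between zones III and I (limma adjusted p = 0.0799), and it was called in no comparison on the deposited scale. Lamp2, its relative and the receptor for chaperone-mediated autophagy, was called higher in zone II than in zone I by 0.32 ± 0.10 and lower in zone III than in zone II by 0.30. Those calls came from its brightest probe set alone, as the 3 others gave 0.85, 0.45 and 0.01 between zones III and II, with the larger 2 called higher.

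Scarb2, which carries the enzyme glucocerebrosidase to the lysosome, was the only member called lower in zone III than in zone I. It had 1299, 1497, 1276 and 1425 in zone I, 1228, 1473, 1333 and 1414 in zone II, and 781, 928, 740.0 and 852 in zone III. The 4 zone III arrays were the 4 lowest of the 12, with means of 825 ± 82.5 in zone III and 1375 ± 105 in zone I (SD, n = 4 each). The difference was -0.74 ± 0.11 between zones III and I (limma adjusted p = 0.000197) and -0.73 ± 0.11 between zones III and II (limma adjusted p = 0.000162), and the zone III against zone I call was kept under every alternative tried, while zone III against zone II was not called with ribosomal protein centring. A dimmer Scarb2 probe set gave another course, called higher in zone II than in zone I (1.22), called lower in zone III than in zone II (-1.38) and uncalled between zones III and I (-0.15).

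Mcoln1, a cation channel that releases calcium from the lysosome, was lowest in zone II on its brightest probe set: the zone I mean was 179.8 ± 9.31, the zone II mean 124 ± 29.9 and the zone III mean 265 ± 26.2 (SD, n = 4 each). It was lower in zone II than in zone I by 0.56 and higher in zone III than in zone II by 1.12, both called, though the first call was lost with quantile normalization and with median centring. A further Mcoln1 probe set gave -0.08, uncalled, at the first boundary and 0.54, called, at the second. Npc1, which exports cholesterol, was dim and was higher in zone III than in zone I by 0.82 ± 0.16.

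The related membrane proteins Laptm4a and Laptm4b were called differently. No ratio between them passed the correction, which even ratios without overlap could miss. Laptm4a read 2396, 2220.0, 2394 and 2139 in zone I, 2715, 2966, 2454 and 2246 in zone II, and 2232, 1784, 1995 and 1932 in zone III. Zone III held 3 of its 4 lowest values. It was called lower in zone III than in zone II by 0.38 (limma adjusted p = 0.0157), a value that was 0.0016 with quantile normalization and turned upward with ribosomal protein centring (0.17). Laptm4b was higher in zone II than in zone I by 0.42 ± 0.12 and was not called between zones III and II (-0.07 ± 0.12). The log2 ratio of Laptm4b to Laptm4a was 0.16 ± 0.08 in zone III and -0.39 ± 0.11 in zone I (SD, n = 4 each), a difference of 0.55 with exact permutation p = 0.0286 and adjusted p = 0.0571. Between zones III and II that ratio was higher by 0.31 (exact permutation p = 0.0857, adjusted p = 0.1286). Between zones II and I it was higher by 0.24 (exact permutation p = 0.1714, adjusted p = 0.2057).

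Calls among the hydrolases came mainly at the second boundary. Of 11, 1 was called higher and 1 lower between zones II and I (median 0.02), while 8 were called higher and none lower between zones III and II (median 0.77). Of all genes, 16% were higher and 25.4% lower at the first boundary (median -0.09), and 30.8% and 22.7% at the second (median 0.08). The 8 were Neu1, the sialidase (1.45), Glb1, the beta-galactosidase (1.40), Man2b1, the alpha-mannosidase (1.34), Gusb, the beta-glucuronidase (1.07), Manba (1.07), Hexa, the alpha chain of hexosaminidase A (0.77), the peptidase Tpp1 (0.47) and Lipa, the acid lipase (0.35), all log2 differences. Tpp1 and Lipa each lost the call under some alternatives, and the other 6 kept it under all of them. Gaa, the acid alpha-glucosidase (-0.12 ± 0.18), the ceramidase Asah1 (0.02 ± 0.10) and the thioesterase Ppt1 (0.12 ± 0.20) were called in no comparison on the deposited scale. With ribosomal protein centring Asah1 and Ppt1 were called higher between zones III and II, and Asah1 lower between zones II and I.

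Manba, the beta-mannosidase, was called higher at both boundaries, the first of these calls not being kept with ribosomal protein centring. Its signals were 125, 104, 124 and 122 in zone I, 207, 144, 234 and 248 in zone II, and 428, 424, 454 and 412 in zone III. The zones did not overlap, and the differences were 0.79 ± 0.16 between zones II and I (limma adjusted p = 0.00185) and 1.07 ± 0.16 between zones III and II (limma adjusted p = 0.000109). Man2b1, which trims the other mannose linkage, read 358, 372, 223 and 218 in zone I, 225, 157, 152 and 223 in zone II, and 458, 515, 459.6 and 448 in zone III. Zone II array A and zone I array D were nearly level, and arrays A and B of zone I were well above C and D. It was called lower in zone II than in zone I (log2 difference -0.61 ± 0.20, limma adjusted p = 0.0328), a call lost with quantile normalization, with median centring and without single arrays, and with a sign that held in 2 of the 3 fluidics runs in which the arrays were processed.

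Activator proteins, which lift lipids out of membranes so that hydrolases can reach them, were lower in zone II than in both neighbours in 2 of 3 cases. Of all genes, 25.4% were called lower in zone II than in zone I and 30.8% higher in zone III than in zone II. Psap, the precursor of the saposins, had 1269.6, 1383, 1118 and 959 in zone I, 802, 547, 635 and 779 in zone II, and 1509, 1415, 1314 and 1252 in zone III. Its zone II arrays were the 4 lowest, and its zones III and I overlapped. It was lower in zone II than in zone I by 0.78 (limma adjusted p = 0.00171) and higher in zone III than in zone II by 1.00 (limma adjusted p = 0.000152). Gm2a, the GM2 ganglioside activator, read 197, 188, 212 and 195 in zone I, 121, 128, 124 and 100.3 in zone II, and 348, 335, 327 and 299 in zone III. No array of a zone overlapped another zone, and its differences were -0.75 ± 0.11 between zones II and I (limma adjusted p = 0.000181) and 1.47 ± 0.11 between zones III and II (limma adjusted p = 3.76e-07). Npc2, the soluble cholesterol carrier that hands its load to Npc1, averaged 3004 ± 304 in zone III and 2568 ± 313 in zone I (SD, n = 4 each) and was called in no comparison on its brightest probe set at the deposited scale. Its 2 other probe sets were called higher in zone III, by 0.45 and 1.35 over zone II and by 0.48 and 1.03 over zone I, and quantile normalization and ribosomal protein centring also called Npc2 higher in both comparisons.

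**Figure D4:**
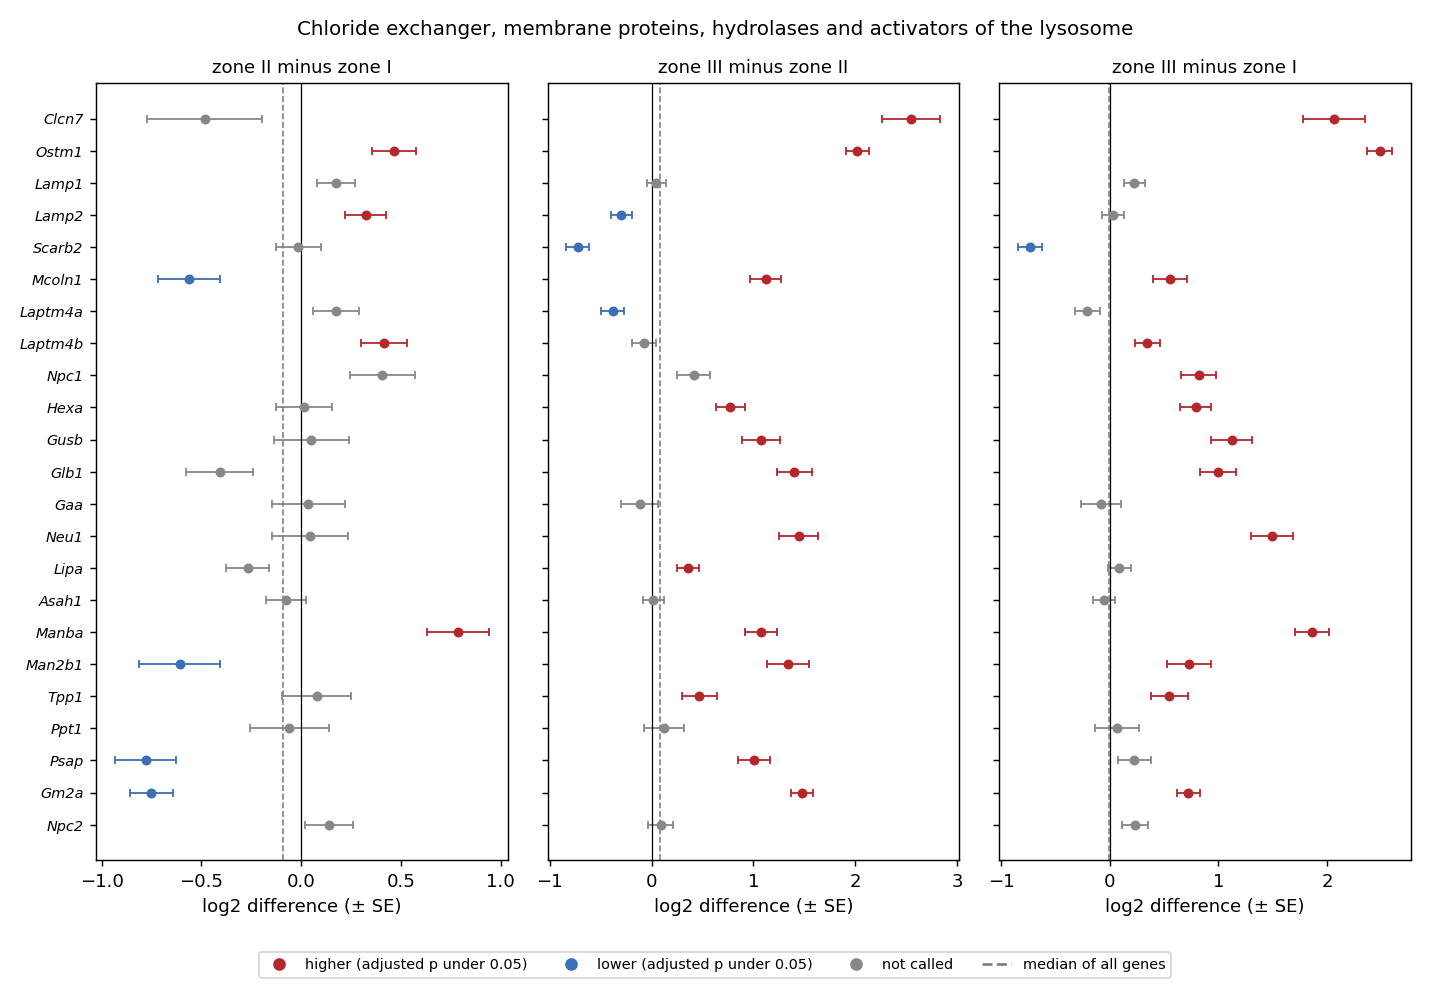
Log2 difference between zones (x axis, bars are SE) for the 23 other lysosomal genes (rows), with the dashed line at the median of all genes tested and colour for the call. In the zone III minus zone II panel Clcn7 and Ostm1 exceed 2 and 8 of the 11 hydrolases are higher, against 30.8% of all genes. In the zone II minus zone I panel Psap, Gm2a, Man2b1 and Mcoln1 lie at or below -0.56.

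Across the 40 measured members, the mean signal was highest in zone III for 32, in zone II for 6 and in zone I for 2. The lowest zone was zone I for 12 of 17 pump genes and 11 of 23 others, and zone II for 5 pump genes and 9 others. The commonest run of calls among pump genes was higher in zone II than in zone I, uncalled between zones III and II and higher in zone III than in zone I, taken by 5 genes (Atp6v0b, Atp6v0d1, Atp6v1d, Atp6v1e1 and Atp6v1h). Among the others it was uncalled at the first boundary and higher at the second, with zone III above zone I, taken by 6 genes (Clcn7, Hexa, Gusb, Glb1, Neu1 and Tpp1). How often all genes on the arrays show these zone orders or runs of calls was not counted, so these counts only describe the members.

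A shared element in the promoters was looked for in the 300 bases around each start site (250 before and 50 after) of 32 of the 41 genes, the ones with a RefSeq promoter on build GRCm38.p6. The E-box CACGTG and its longer form TCACGTGA, the core of the element through which the Tfeb and Mitf family of factors acts on lysosomal genes, both read the same on either strand, and each longer match holds the shorter. CACGTG was present in 9 of the 38 promoters of these 32 genes (23.7%), against 7.15% of all 32851 promoters, and TCACGTGA in 5 (13.2%), against 0.974%. The variant TCATGTGA, on either strand, was in 3 (7.89%), against 0.986%. The other 4 promoters with CACGTG belong to Atp6v0b, Gaa, Glb1 and Lamp1, and TCATGTGA stood in those of Atp6v0c, Ppt1 and Tpp1. The 5 longer matches follow, each with 11 bases on either side, the match in capitals, because they come from genes of unlike courses.
Atp6v0d1: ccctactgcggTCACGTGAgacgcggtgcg
Atp6v1a: ttttttttaaaTCACGTGAtaggcttaacg
Atp6v0e: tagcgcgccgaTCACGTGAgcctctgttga
Clcn7: ccgatgatagaTCACGTGAgacctgggcgc
Mcoln1: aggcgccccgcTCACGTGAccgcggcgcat

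These windows lie at chr8:105566050-105566079 on the minus strand (Atp6v0d1), chr16:44139373-44139402 on the minus strand (Atp6v1a), chr17:26676387-26676416 on the plus strand (Atp6v0e), chr17:25133386-25133415 on the plus strand (Clcn7) and chr8:3500462-3500491 on the plus strand (Mcoln1). The match begins 4, 132 and 46 bases before the start site in Atp6v0d1, Atp6v1a and Mcoln1, and at base 3 and base 7 after it in Atp6v0e and Clcn7. Of the 5 genes, 3 were called higher in zone II than in zone I (Atp6v0d1, Atp6v1a and Atp6v0e), Mcoln1 was called lower there and Clcn7 was not called. Between zones III and II, Clcn7, Mcoln1 and Atp6v1a were higher, Atp6v0e lower and Atp6v0d1 uncalled. A match is a run of letters and not a measured binding site.

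Other genes of the lysosome, from lists kept apart from the 41, were counted in the same way. A list of 19 further genes measured held hydrolases and Sumf1, which modifies sulfatases and was called in no comparison. Of the 19, 1 was higher and 8 were lower in zone II than in zone I (background 16% and 25.4%). Between zones III and II, 11 were higher and 2 lower (30.8% and 22.7%). In zone III against zone I, 6 were higher, 2 lower and 11 uncalled (21.6% and 21.7%), with a median of 0.08. The largest were the arylsulfatase Arsb (2.61), the sphingomyelinase Smpd1 (1.76) and the sulfatase Galns (1.57) between zones III and II, and Ids (-1.36), Smpd1 (-1.26) and Galns (-0.94) between zones II and I. The fucosidase Fuca2 went the other way at both, 0.51 and then -0.88. The 6 genes measured for sorting to the lysosome were genes of the mannose 6-phosphate route and, apart from it, the receptors Sort1 and Sorl1. Of these 6, 3 were higher and 1 lower in zone III than in zone II (background 30.8% and 22.7%). The higher ones were Nagpa (1.83) and Sorl1 (1.43), both from low signals, and Gnptab (1.01), against Sort1 (-0.80). Sort1 was higher in zone II than in zone I (1.24) and Sorl1 lower (-1.74). Sorl1 averaged 51.25, 16.2 and 41.05 in zones I, II and III, so its differences are loose.

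Of 12 genes that place lysosomes or form the ruffled border, 8 were higher and 1 lower in zone III than in zone II (30.8% and 22.7% of all genes). Snx10, a sorting nexin required for osteoclast resorption, averaged 984 ± 124 in zone III and 43.2 ± 7.97 in zone II (SD, n = 4 each), a log2 difference of 4.52. Car2, the carbonic anhydrase that supplies the protons (2.19), and the chloride-bicarbonate exchanger Slc4a2 (1.97) followed, and Vps41 was lower (-0.68). Of the 14 genes of the Tfeb family and the lysosomal mTORC1 scaffold, 3 were higher and 3 lower: Tfec (4.95), Mitf (2.40) and Flcn (0.84) against Lamtor2 (-0.90), Lamtor4 (-0.70) and Lamtor5 (-0.53). Those counts are 21.4% each way, not above the shares of all genes. Tfec averaged 81.5 in zone III and 2.82 in zone II, near the floor of the arrays, so its fold is loose. Between zones II and I, Rragd (1.21), Lamtor2 (0.43) and Lamtor4 (0.40) were higher and Flcn (-0.58) lower, where 16% and 25.4% of all genes were. Slc4a2 was the only one of the 12 placement and border genes called between those zones, lower by 0.47.

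Between zones III and II, where Atp6v0d2, Tcirg1, Clcn7 and Ostm1 were higher, 9 of 10 osteoclast markers measured were higher and none lower. Of the macrophage markers 14 of 14 tested were higher. In the same comparison endothelial markers were higher for 8 of 8 (median 3.06) and osteoblast and bone matrix markers for 6 of 7, with none lower (median 2.61). In zone II against zone I, where 9 pump genes and Ostm1 were higher, 2 of 10 osteoclast markers were higher and 2 lower, 7 of 14 macrophage markers were lower and none higher, and 8 of 8 endothelial markers were lower. Osteoblast and bone matrix markers were higher there for 5 of 7 and lower for none (median 2.39). Cartilage markers were higher for 4 of 9 in zone II against zone I and lower for 8 of 9 in zone III against zone II. Between zones III and I, 9 of 10 osteoclast and 10 of 14 macrophage markers were higher, with none and 1 lower. Endothelial markers were higher there for 7 of 8 and osteoblast and bone matrix markers for 7 of 7. Of all genes, 30.8% were higher and 22.7% lower in zone III against zone II, 16% and 25.4% in zone II against zone I, and 21.6% and 21.7% in zone III against zone I. The part of these cells in any step was not tested.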

How the data were processed

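The analysis started from the table of signal intensities that the authors deposited, with 45101 probe sets on each of 12 arrays, already scaled so that every array had a 2% trimmed mean of 150.0. The submitters' processing notes name RMA and the study's methods a GC-corrected RMA, and the deposited linear values do not settle which algorithm gave them. Genes were named from the platform annotation: 34945 probe sets carried 1 symbol, 932 several and 9160 none, besides 64 controls. Array signals carry no read depth, and 4 arrays per zone limit the precision. The labels do not say whether the letters A to D mark litters, and p-values measure the spread between these pooled samples.

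Signals were taken to log2. A probe set entered the tests if any zone's mean reached 50, which left 22255 probe sets, and 11808 genes by their brightest probe set. A linear model with a mean per zone was fitted to the 12 arrays (limma 3.58.1, R 4.3.3), with Benjamini-Hochberg adjustment over all probe sets and calls at an adjusted p under 0.05. The fit was tested on simulated data. Isoform ratios were compared by exact two-sided permutation tests. The members, the lists and the rule for genes named were chosen with earlier results of these data known: every member is named, per-array values are given for Tcirg1, both d subunits, Atp6v0a1, Atp6v0a2, Clcn7, Ostm1, Lamp1 and the 4 largest called differences in each direction and comparison, and of other lists up to 3 called genes per direction. Alternatives covered filters, scalings, probe set choice, weights, blocks and left-out arrays. Promoters are from RefSeq, build GRCm38.p6. Array run records were read only for fluidics runs, and the control ratios came from the deposited signals.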

Additional observations from a re-analysis of the deposited data

Results flagged for a closer look

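Of 120 groups of 4 arrays (40 genes in 3 zones), 6 held an array far from the other 3, and about 6 are expected by chance. Atp6v0a1 read 28.9 on array D of zone I, against 80.0 to 85.7 on the others, and Clcn7 read 28.8 on array B of zone II, against 72.0 to 81.8. Manba was low on array B of zone I at 103.5, the others being 122 to 125. Ostm1 was low on array A of zone II at 183, the others being 207 to 209, and Npc2 on the same array at 2493, against 2889 to 2977. Atp6v0d1 was high on array A of zone III at 1149, against 1022 to 1026.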

How the results depend on the processing

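With ribosomal protein centring the median gene moved to -0.43 between zones II and I, 0.64 between zones III and II and 0.20 between zones III and I, and higher calls became 9.88%, 90.3% and 70.4% of all calls, against 38.7%, 57.6% and 50% on the deposited scale; with median centring they were 58.6%, 39.5% and 44.3%, and with quantile normalization 43.6%, 50.1% and 47.1%. Members called with ribosomal protein centring were then 1 higher and 11 lower between zones II and I, and 34 higher and 0 lower between zones III and II. The 5 lower calls between zones III and II became 2 with no filter, 1 with quantile normalization and 3 with a gene's median probe set value. Signs turned for Lamp2 between zones II and I (-0.022 with ribosomal protein centring, -0.0501 with the median of probe sets) and, between zones III and II, for Lamp2 (0.12 quantile, 0.25 ribosomal, 0.23 median of probe sets), Atp6v1g1 (0.13 quantile, 0.23 ribosomal), Laptm4a (0.0016 quantile, 0.17 ribosomal) and Atp6v0e (0.094 ribosomal). For the alternatives other than scalings the cause was not tested. Leaving out each array in turn gave 11 to 13 higher and 4 to 7 lower between zones II and I, 18 to 21 and 3 to 5 between zones III and II, and 24 to 26 and 1 to 1 between zones III and I; the 3 lower calls between zones III and II came without array C of zone II and without arrays B, C or D of zone III. Single arrays decided these calls, with the adjusted p without each: between zones II and I, Atp6v0a1 (0.0507 to 0.0593 without zone I A, B or C or zone II B or C), Atp6v0d1 (0.0516 to 0.0571, zone I C or D, zone II D), Atp6v1c1 (0.059 to 0.0796, zone I A or C, zone II C or D), Lamp2 (0.0651 to 0.0703, zone I B or D, zone II B or C) and Man2b1 (0.0862 to 0.0931, zone I A or B, zone II B or C); between zones III and II, Atp6v1a (0.0517 to 0.0659, zone II A, zone III A or C), Atp6v1g1 (0.0503 to 0.0647, zone II A or C, zone III C or D), Lamp2 (0.0601 to 0.0791, zone II B or C, zone III B, C or D), Laptm4a (0.051, zone III B) and Tpp1 (0.0583 to 0.114, zone II A or B, any of zone III); between zones III and I, Laptm4b (0.0504 to 0.0798, zone I B, C or D, any of zone III) and Tpp1 (0.0504 to 0.0701, zone I A, zone III A or C). Kept under every alternative were 1 of 13 higher and 3 of 6 lower calls between zones II and I, 17 of 20 and 0 of 5 between zones III and II, and 23 of 26 and 1 of 1 between zones III and I. With the replicate letter as a block the counts were 13 and 6, 20 and 5, and 26 and 1, and no call changed; deviations of arrays with the same letter correlated at -0.128 to 0.257, 8 of 12 of them over 0.1, and 7 of 12 arrays correlated best with their own letter, a hint of pairing that the labels do not state. Blocking on the fluidics run, the counts were 12 and 6, 20 and 4, and 25 and 1. Isoform ratios were not refitted with the run as a block, and leaving out an array left 4 against 3 arrays in their tests. Dim probe sets, such as those of Atp6v0a1, Atp6v0d2 in zones I and II and Neu1, sit near the level of the filter, which limits their differences.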

Other observations

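Genes with more than 1 probe set gave a check within the gene. Of the 40 members, 24 had others above the filter. All of a gene's other probe sets had the sign of the called one for 9 of 12 called genes between zones II and I, 13 of 15 between zones III and II and 16 of 16 between zones III and I, the exceptions being Atp6v0a1, Atp6v1h and Lamp2 at the first and Atp6v1g1 and Lamp2 at the second. Within each of the 3 fluidics runs, 17 of 19 called members kept their sign between zones II and I (not Atp6v0a1 and Man2b1), 25 of 25 between zones III and II and 27 of 27 between zones III and I.

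Of 8 further pump isoforms known for narrow expression, 1 passed the filter. Atp6v0a4, the a4 subunit best known from kidney, averaged 55.3 ± 8.05 in zone II and 32.8 ± 9.84 in zone I (SD, n = 4 each), a log2 difference of 0.79 (limma adjusted p = 0.0199), and zone III was lower than zone II by 0.87 (limma adjusted p = 0.00848). Its signals lie at the level of the filter.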
